A study of Mus musculus with 24 samples.

Results

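The genes that encode the proteins of the cytosolic ribosome were followed in the livers of obese mice. Members were the rows named by the standard symbols of these genes (Rpl or Rps with a number and at most 1 further letter a, x or l, Rplp0 to Rplp2, and Rpsa) with a mean level of at least 5 CPM (counts scaled to the library total) over all libraries. Of 22355 genes in the table, 50 rows carried such a name and 42 reached that level, 25 of them proteins of the large (60S) subunit and 17 of the small (40S) subunit. All 42 also passed the filter on low counts. The 8 named rows below the minimum ran from Rpl6l at 0.643 CPM to Rpl27 at 3.97 CPM, and the members just above it were Rpl36a at 6.40, Rpl13 at 6.73 and Rpl31 at 7.23 CPM. RefSeq lists 81 protein-coding genes with such names in the mouse. Of these, 32, among them Rplp1, Rplp2, Rps27a and Rpl11, had no row and were not analysed here. The lack of a row does not show that they were not expressed.

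All mice were DIO (diet-induced obese) animals, for which the labels give no strain, sex or age. Treatment lasted 4 d and was either vehicle or IUB288, which is a code name for an agonist of the glucagon receptor. Vehicle mice gave their livers 22 h after the final injection and IUB288 mice 4 h or 22 h after theirs, with 8 replicate livers in each of these 3 groups. No vehicle group was taken at 4 h, so in the 4 h comparison the treatment and the time since the last injection cannot be told apart.

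Each cytosolic ribosome is built from ribosomal RNA and a single copy of nearly every one of these proteins, so a cell makes them in close to equal amounts. Their mRNAs are among the most abundant of a growing cell, and most begin with a 5′ terminal oligopyrimidine (TOP) tract, a C followed by a run of C and T, through which the kinase complex mTORC1 and the protein LARP1 set how many of them are translated. In liver, glucagon raises amino acid breakdown and glucose output, and control of the TOP mRNAs acts mainly on translation, which mRNA counts do not record. Processed copies of these genes are spread over the mouse genome in large numbers, so that short reads from 1 gene can match many places.

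Libraries held 14 to 44.1 M counts, and 0.354% of the counts of a vehicle liver, 0.387% at 4 h and 0.436% at 22 h fell on the 42 members on average. Hepatocyte markers summed to at least 67290 CPM in every liver, so the labelled tissue carried its defining genes, and their mean sum was 98760 CPM in vehicle livers, 82710 at 4 h and 78260 at 22 h. Of the 8 hepatocyte markers tested, 3 were higher and 4 lower at 4 h, and 4 higher and 3 lower at 22 h. The erythroid markers summed to 213 to 472 CPM in vehicle livers, 181 to 280.0 at 4 h and 123 to 214 at 22 h, with 4 of 5 tested lower at both times. The 10 markers of Kupffer cells and macrophages summed to 396 to 1169 CPM in vehicle livers, 357 to 618 at 4 h and 157 to 675 at 22 h. For 11 markers of stellate cells and fibroblasts these ranges were 765 to 1422, 416 to 727 and 229 to 701 CPM, and for 10 endothelial markers 351 to 620, 365 to 432 and 163 to 400 CPM. At 22 h replicates 6 and 7 held the lowest sums of all 3 lists, and vehicle replicate 1 held adipocyte markers at 4290 CPM against 38.7 to 68.3 CPM in the other vehicle livers. The labels do not say how the livers were assigned to libraries.

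TOP tracts are shown here because they are the sequence that these mRNAs are known to share and that the name rule did not use. RefSeq start sites (GRCm38.p6) were at hand for 28 of the 42 members. A tract of C followed by at least 6 bases that were C or T, on the strand of the gene, lay within 15 bases of the start in 13 of the 28 (46.4%) against 16.4% of 27025 genes. Within 40 bases before to 50 after the start, it lay in 24 of the 28 (85.7%) against 40.8% of all genes. The 30 bases around the start are given below for 4 members that rose and for 2, Rpl27a and Rps18, that were not called at 4 h or 22 h, with the tract in capitals and the annotated first base of the transcript at position 16. They lie at chr7:45128731-45128760 (Rpl13a, minus strand), chr10:128626492-128626521 (Rps26, minus), chr4:86857353-86857382 (Rps6, minus), chr14:24490663-24490692 (Rps24, plus), chr7:109519180-109519209 (Rpl27a, plus) and chr17:33955651-33955680 (Rps18, minus).
Rpl13a: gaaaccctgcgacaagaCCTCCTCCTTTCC
Rps26: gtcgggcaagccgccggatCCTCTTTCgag
Rps6: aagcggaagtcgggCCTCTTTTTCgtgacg
Rps24: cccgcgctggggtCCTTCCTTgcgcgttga
Rpl27a: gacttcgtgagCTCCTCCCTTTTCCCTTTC
Rps18: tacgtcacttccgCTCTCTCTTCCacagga
The tracts began within 5 bases of the annotated start in all 6, which were picked from the 13. Most others of the 13 had tracts that began farther away. Examples are Rpl31 and Rps15a (15 bases before the start), Rpl13 (13 before) and Rps19 (base 7 of the transcript). Rpl27a and Rps18 were also among the members in which 3 livers stood apart, as given below. Without those livers Rpl27a was called higher at 22 h (0.32, limma-voom adjusted p = 0.0233). Of the 13 members with a tract within 15 bases, 5 were called higher at 4 h (38.5%) and 9 at 22 h (69.2%). The shares were 35.7% and 81.0% of all 42 members, and 21.7% and 17.6% of all genes tested by the comparisons described below. In the 300 bases around the start, searched on both strands, the cyclic AMP response element TGACGTCA, the site bound by CREB downstream of the glucagon receptor, was found in 4 of 28 members (14.3%) against 2.03% of all genes. The ETS core CCGGAA was found in 15 (53.6% against 16.7%), the YY1 core AAGATGG in 6 (21.4% against 7.28%) and TATAAA in 4 (14.3% against 15.7%). These are matches of letters in a window and not tested sites. The 27025 genes behind the shares were not limited to genes expressed in liver, whereas every member had a mean of at least 5 CPM. Whether members with a match changed more than others was not tested.

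At 22 h most of the ribosomal protein genes were higher than in vehicle livers, by a similar and small amount in both subunits. By limma-voom, with p-values adjusted over all 11508 genes tested and a threshold of 0.05, 34 of 42 members (81.0%) rose and 0 fell, where 17.6% of all genes tested were called higher and 19.2% lower. The 60S proteins counted 20 of 25 and the 40S proteins 14 of 17. The median log2 fold change of the members was 0.28, which is 1.21-fold, against −0.02 over all genes tested, and the members between the quartiles lay from 0.20 to 0.39. By medians, the subunits stood at 0.25 for 60S and 0.29 for 40S. In bulk liver RNA, fewer cells of a type and less RNA per cell cannot be told apart. Most of the hepatocyte marker sum came from 1 gene, Alb. Its mean was 70007.5 CPM in vehicle livers and 46984.2 at 22 h (scaled by trimmed mean of M values). Of the 8 hepatocyte markers tested, 4 were higher at 22 h and 3 lower. Ahsg rose by 1.11, Cps1 by 1.14 and Serpina1a by 1.01 on the log2 scale. The 3 lower markers were Apoa1 at −1.30, Ttr at −0.85 and Alb at −0.58. The lower hepatocyte sum at 22 h thus went with markers that moved in both directions. The part in these results of the lower marker sums of hepatocytes and other cell types was not tested. Without vehicle replicate 1 and 22 h replicates 6 and 7, a choice made after seeing the data, 30 members were called higher at 22 h, with a median of 0.23.

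**Figure D1:**
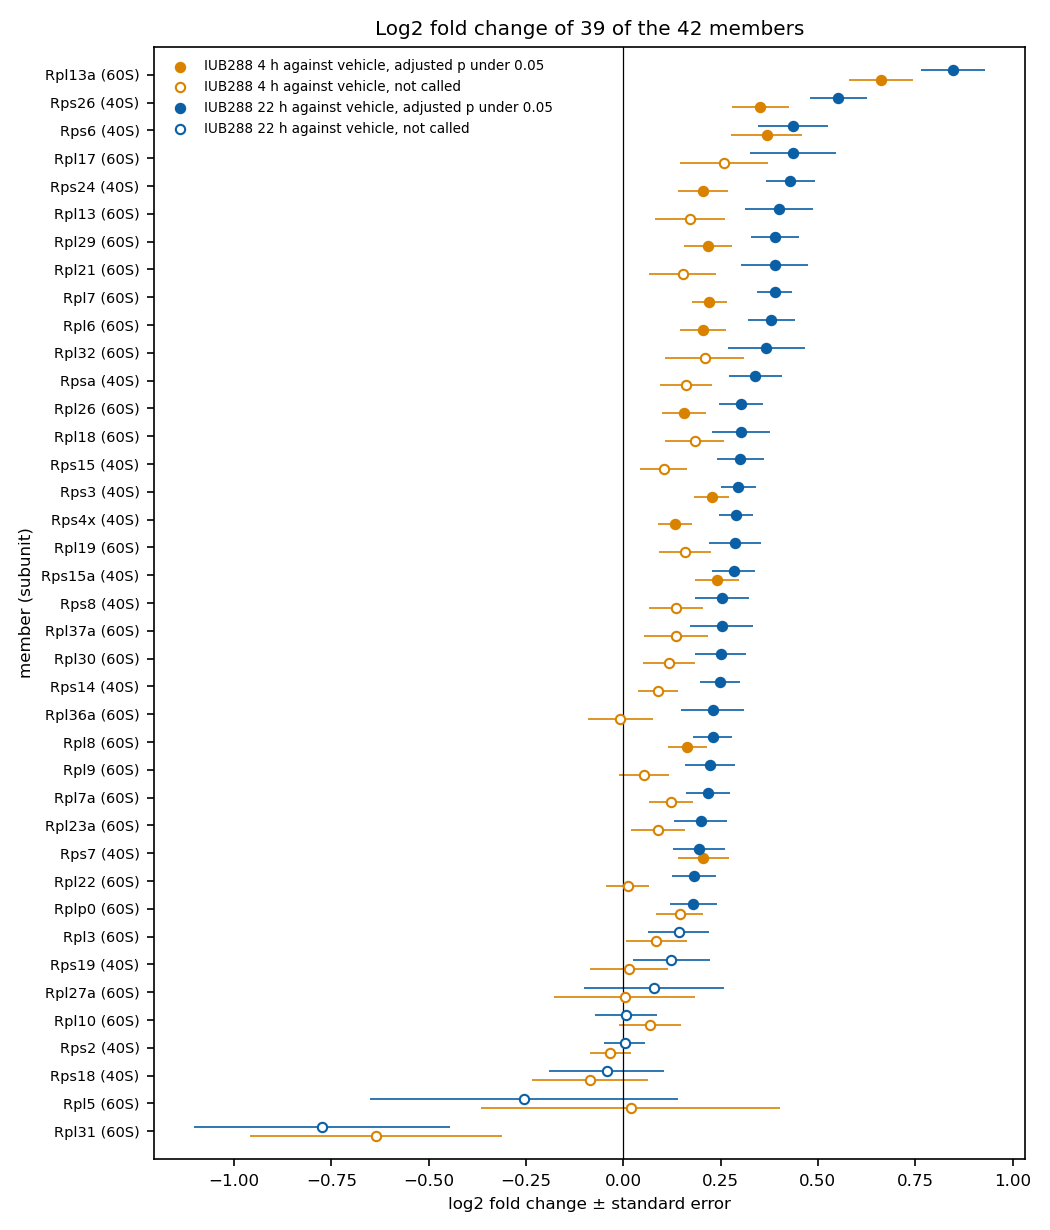
Log2 fold change with its standard error (horizontal axis) of 39 of the 42 members (vertical axis, with the subunit), at 4 h (orange) and 22 h (blue) against the same 8 vehicle livers, ordered by the value at 22 h; filled points passed the threshold of 0.05 and open points did not. Most points lie to the right of 0, Rpl13a lies farthest right at both times, and Rpl31 and Rpl5 at the bottom carry the widest errors.

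At 4 h a smaller set had risen. By the same test 15 of 42 members (35.7%) were higher and 0 lower, against 21.7% and 22.5% of all genes tested. Among them were 9 of the 17 proteins of the 40S subunit and 6 of the 25 of the 60S subunit, a difference between subunits that was not tested. The 42 members had a median log2 fold change of 0.15 against −0.07 over all genes tested, with 38 members above 0. Under some other settings the 4 h share was near that of all genes. It was 8 (19.0%, against 17.6% of all genes) with upper quartile scaling, 9 (21.4% against 17.9%) with library totals and 10 (23.8% against 26.3%) over the genes with a mean of at least 5 CPM. The members' median was then 0.08, 0.10 and 0.09. Both comparisons with vehicle use the same 8 vehicle livers, so they are not independent of each other. The direct comparison of 22 h with 4 h called 16 members higher (38.1%) and 0 lower, against 14.3% and 15% of all genes tested, with a median of 0.14. Those 16 were divided evenly, 8 from each subunit.

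The count for 22 h against 4 h depended on single livers and on the setting. It was 20 without 22 h replicate 2, 27 with upper quartile scaling (64.3% against 20.0% of all genes) and 23 over the genes with a mean of at least 5 CPM (54.8% against 20.5%). It fell to 10 without 4 h replicate 1 or 2, 8 without 4 h replicate 6, 7 without 4 h replicate 8, 8 without 22 h replicate 3, 6 without 22 h replicate 5, 9 without 22 h replicate 6 and 10 without 22 h replicate 7. All of these are counts of 42 members. With 1 liver left out at a time, 1495 to 1767 genes were called higher, against 1644 (14.3% of all genes tested) with all livers. At 6 of 42, the share of members without 22 h replicate 5 was near that of all genes. Without vehicle replicate 1 and 22 h replicates 6 and 7 together the member count was 5 (11.9%, against 13.4% of all genes). No member had its 8 livers at 22 h fully apart from the 8 at 4 h, where 10.7% of all genes tested did.

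Summed over the members, each liver gave 1 value, in CPM scaled by trimmed mean of M values (TMM), the scale of all levels below. The sum was 3292, 3435 and 3901 CPM (lowest, median and highest) in vehicle livers, 3793, 3937 and 4147 at 4 h and 3674, 4368 and 4896 at 22 h. Means were 3477 ± 191, 3945 ± 111 and 4349 ± 423 CPM (SD, n = 8 each). Vehicle replicate 2, at 3901, was the liver that made the vehicle range overlap the others, and the next highest vehicle liver had 3547. Without vehicle replicates 2 and 7 the vehicle sums ran from 3292 to 3547, below all livers at both times.

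The livers at 22 h were spread more widely than those at 4 h. Replicates 5, 6 and 7 held the highest sums (4896, 4677 and 4756 CPM) and replicate 2 the lowest (3674). Replicate 5 had 36 of 42 members above all 8 vehicle livers and replicate 2 had 11, whereas the 4 h livers had 13 to 21. The coefficient of variation of a member between livers, SD as a percent of the mean, had a median of 8.25% in vehicle livers, 6.01% at 4 h and 11.7% at 22 h. Replicates 6 and 7 were also the livers with the least RNA of Kupffer, stellate and endothelial markers, and replicate 5 came next within the 22 h group on all 3 lists. Their part in the sums was not tested.

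**Figure D2:**
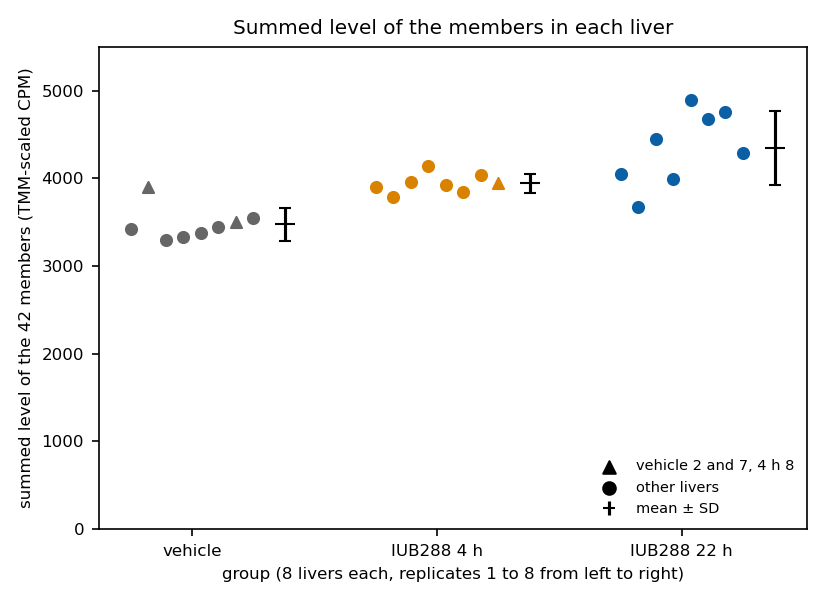
Summed level of the 42 members in TMM-scaled CPM (vertical axis, from 0) in each of the 8 livers of the 3 groups, with the mean ± SD of a group in black and the libraries vehicle 2, vehicle 7 and 4 h 8 as triangles. The 4 h livers form a narrow band from 3793 to 4147 CPM, the 22 h livers range from 3674 to 4896, and vehicle 2 at 3901 stands above the other vehicle livers.

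The sample descriptions number the livers in runs of 1 to 12 and 13 to 24, each with 4 livers of every group, and nothing says what the runs were. Livers 1 to 12 had sums of 3488 ± 281 CPM with vehicle, 3951 ± 149 at 4 h and 4043 ± 318 at 22 h (SD, n = 4 each). For livers 13 to 24 the sums were 3467 ± 73.9, 3939 ± 81.7 and 4654 ± 261 CPM. In livers 1 to 12 alone, limma-voom called 7 members higher at 4 h (16.7%, against 13% of all genes), 7 at 22 h (16.7% against 5.59%) and 0 at 22 h against 4 h (against 5.95%). Livers 13 to 24 alone gave 11 at 4 h (26.2% against 14.5%), 34 at 22 h (81.0% against 13.3%) and 22 at 22 h against 4 h (52.4% against 10.9%). In the order of the runs, median log2 fold changes were 0.13 and 0.16 at 4 h, 0.18 and 0.40 at 22 h, and 0.06 and 0.25 between the times. The direction of the members' median was therefore the same in both runs, while its size at 22 h was not, a difference that was not tested.

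Among the members that led at either time, Rpl13a stood first. It encodes a 60S protein that, once phosphorylated and released, also joins a complex that silences inflammatory mRNAs, and its introns hold small nucleolar RNAs. The gene (Entrez 22121) lies on chromosome 7 at 45125563-45128745. Its level was 167, 172 and 216 CPM (lowest, median and highest) in vehicle livers, 263, 275 and 323 at 4 h, and 248, 331 and 397 at 22 h. All treated livers lay above all vehicle livers at both times, and the livers at the 2 times overlapped. It rose by 0.66 ± 0.08 on the log2 scale at 4 h (adjusted p = 3.97e-07 by limma-voom, 1.58-fold) and by 0.85 ± 0.08 at 22 h (2.80e-08, 1.80-fold). The difference of 0.18 between the times did not pass (adjusted p = 0.102).

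Rps26 sits where the mRNA leaves the small subunit and contacts the mRNA ahead of the start codon. It (chromosome 10, 128624529-128626506) gave 95.7, 107 and 127 CPM with vehicle, 127, 139.5 and 149 at 4 h, and 131, 163 and 194 at 22 h. The lowest 4 h liver, at 127.1, was only just above the highest vehicle liver at 126.8. Its log2 fold changes were 0.35 ± 0.07 (adjusted p = 0.000339) and 0.55 ± 0.07 (2.73e-06), and 22 h exceeded 4 h by 0.20 ± 0.07 (0.0402, limma-voom).

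Rps3, at the entry of the mRNA channel and also known from DNA repair, showed the same order with a smaller change. Vehicle livers held 161, 172 and 184 CPM, 4 h livers 191, 201 and 218, and 22 h livers 187, 213 and 230. The treated livers did not overlap with vehicle, and the 2 times overlapped widely. Log2 fold changes were 0.23 ± 0.04 at 4 h (adjusted p = 0.000186 by limma-voom) and 0.30 ± 0.04 at 22 h (1.67e-05). Rps15a, at 59.8, 65.6 and 73.4 CPM with vehicle, 69.0, 78.5 and 82.1 at 4 h, and 73.2, 78.4 and 91.5 at 22 h, likewise did not differ detectably between the times (0.04, adjusted p = 0.607).

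Rpl7, a 60S protein bound to 28S ribosomal RNA, had the smallest spread of all members in vehicle livers, a coefficient of variation of 3.33%. It lies on chromosome 1 at 16101295-16104433. Its level was 173, 178 and 192 CPM with vehicle, 199, 207 and 230.1 at 4 h, and 209, 234 and 265 at 22 h. Treated and vehicle livers did not overlap. It rose by 0.22 ± 0.05 (limma-voom adjusted p = 0.00031) and 0.39 ± 0.05 (4.68e-07), and by 0.17 ± 0.05 from 4 h to 22 h (0.00615). Rpl6, another 60S protein, gave 94.0, 104 and 110.5 CPM with vehicle, 112, 119 and 126 at 4 h, and 113, 136 and 154 at 22 h, again with no treated liver in the vehicle range. Its 22 h livers exceeded its 4 h livers by 0.17 (adjusted p = 0.0268).

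Of the 42 members, 7 had no overlap between vehicle and 4 h livers (16.7%), among them Rpl13a, Rps26, Rpl7, Rpl6 and Rps3, against 16.1% of all genes tested. At 22 h there were 9 (21.4%), those 7 with Rps4x and Rps14 added, against 7.41% of all genes tested. The share at 4 h was near that of all genes.

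**Figure D3:**
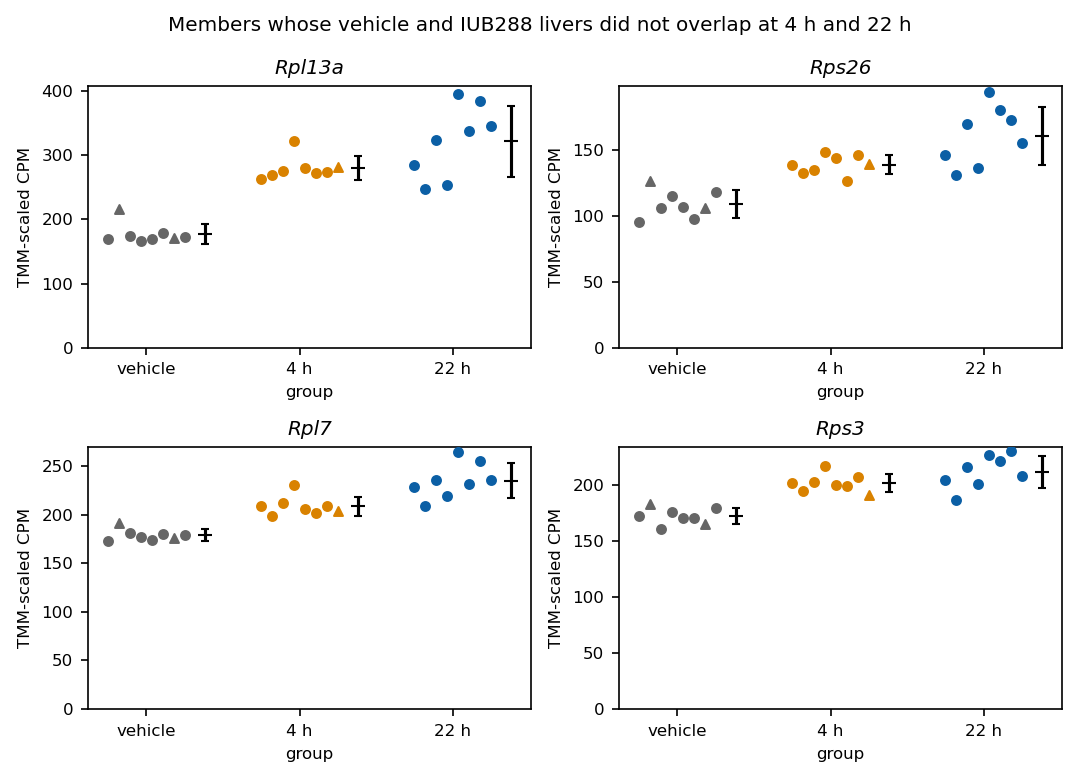
Level of Rpl13a, Rps26, Rpl7 and Rps3 in TMM-scaled CPM (vertical axes, from 0) in each liver of the vehicle, 4 h and 22 h groups, with mean ± SD in black and vehicle 2, vehicle 7 and 4 h 8 as triangles. In all 4 panels the vehicle livers lie below the treated ones, and the 22 h livers are the most scattered.

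Rps6 is the 40S protein that the S6 kinases phosphorylate when mTORC1 is active. Few reads were assigned to its row (chromosome 4, 86854099-86857367), with 10.1, 12.5 and 16.1 CPM in vehicle livers, 14.6, 16.1 and 18.8 at 4 h, and 14.7, 16.9 and 20.9 at 22 h. The groups overlapped through the highest vehicle livers. It was higher by 0.37 ± 0.09 at 4 h (limma-voom adjusted p = 0.0019) and by 0.44 ± 0.09 at 22 h (0.000557), and the times did not differ detectably (0.07, 0.602).

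The direct test of 22 h against 4 h called 8 genes of the 40S subunit. Rps24, needed to mature 18S ribosomal RNA and one of the genes mutated in Diamond-Blackfan anaemia, gave 144, 153 and 188 CPM with vehicle, 160.1, 181 and 189.5 at 4 h, and 172, 215 and 235 at 22 h. The groups overlapped, through vehicle replicate 2 at 188 CPM. Its log2 fold changes were 0.20 ± 0.06 at 4 h (adjusted p = 0.0107), 0.43 ± 0.06 at 22 h (1.24e-05) and 0.22 ± 0.06 between the times (0.00846, limma-voom). Rps4x, the X-linked form of its protein (102184941-102189391), gave 172, 179.5 and 198 CPM with vehicle, 185, 200.1 and 213 at 4 h, and 199.8, 227 and 234 at 22 h. The 4 h livers overlapped with vehicle and the 22 h livers did not. It was higher by 0.13 ± 0.04 at 4 h (adjusted p = 0.0155), by 0.29 ± 0.04 at 22 h (1.70e-05) and by 0.16 ± 0.04 between the times (0.00792).

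Rps14, whose loss causes the anaemia of the 5q deletion syndrome, gave 176, 192 and 199.9 CPM with vehicle, 188, 199 and 225 at 4 h, and 200.5, 229 and 247 at 22 h. It did not pass at 4 h (0.09, adjusted p = 0.164), and at 22 h it was higher by 0.25 ± 0.05 (0.000581, limma-voom) with no overlap. Rps15, needed for export of the small subunit from the nucleus, gave 98.2, 105 and 117 CPM with vehicle, 109.8, 113 and 119.7 at 4 h, and 109 (the lowest), 130.0 and 155 at 22 h. The groups overlapped. It did not pass at 4 h (0.10, adjusted p = 0.165), and it was higher at 22 h than at 4 h by 0.20 ± 0.06 (0.0145).

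Rplp0 anchors the acidic stalk that recruits elongation factors, and lies on chromosome 5 at 115559467-115563729. It is often used as a reference gene. Vehicle livers held 170.5, 192 and 227 CPM, 4 h livers 204, 211 and 227, and 22 h livers 192, 214 and 259. The 3 groups overlapped. The difference at 4 h was 0.14 ± 0.06 (adjusted p = 0.0518 by limma-voom) and at 22 h 0.18 ± 0.06 (0.0209), so it was among the members that rose at 22 h. Rpl12, which binds at the base of the stalk, was below the member minimum at 3.23 CPM and rose at 4 h (0.42, adjusted p = 0.0151) but did not pass at 22 h (0.31, 0.0831).

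Rpsa, a 40S protein also known as the laminin receptor, lies on chromosome 9 at 120127766-120132369. It gave 114, 126 and 146 CPM with vehicle, 138, 141 and 153 at 4 h, and 138, 159.7 and 194 at 22 h, with overlap at both times. The 4 h difference was 0.16 ± 0.07 (limma-voom adjusted p = 0.0537) and the 22 h rise 0.34 ± 0.07 (0.000366). Rpl22, a 60S protein that also binds mRNAs in the nucleus, gave 105, 119.9 and 132 CPM with vehicle, 113, 117 and 138 at 4 h, and 119, 134 and 151 at 22 h. It stood at 0.01 ± 0.06 at 4 h (0.888), and was higher at 22 h than with vehicle by 0.18 ± 0.06 (0.0131) and than at 4 h by 0.17 ± 0.06 (0.0224).

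The 8 members not called at 22 h were Rpl3, Rps19, Rpl27a, Rpl10, Rps2, Rps18, Rpl5 and Rpl31. Rps2, a 40S protein at the entry of the mRNA channel, gave 201, 225 and 236 CPM with vehicle, 202, 219 and 231 at 4 h, and 193, 222 and 249 at 22 h. Its log2 fold changes were −0.03 ± 0.05 (limma-voom adjusted p = 0.631) and 0.00 ± 0.05 (0.968), with the groups fully overlapping. Rpl10, which joins the large subunit at the last steps of its maturation, gave 8.87, 10.3 and 11.1 CPM with vehicle, 9.18, 10.6 and 11.2 at 4 h, and 8.16, 10.1 and 13.1 at 22 h, with differences of 0.07 (0.5) and 0.01 (0.956). For Rpl3, a protein of the peptidyl transferase centre, the 22 h difference was 0.14 (0.16), and for Rps19, mutated in Diamond-Blackfan anaemia, 0.12 (0.351).

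In the other 4 of those 8 members, 3 livers from 2 groups stood apart. Rpl5, which binds 5S ribosomal RNA and can hold MDM2, gave 69.7 CPM in vehicle replicate 2, 44.8 in vehicle replicate 7 and 49.3 in 4 h replicate 8, against 7.44 to 19.8 CPM in the other 21 livers. Rpl31 gave 30.05, 17.3 and 16.4 CPM in these 3 livers against 3.41 to 7.14 in the others. For Rpl27a the values were 42.3, 26.6 and 29.6 CPM against 13.7 to 26.2, and for Rps18, in the head of the small subunit, 41.2, 28.5 and 31.0 against 15.2 to 24.8. These were the only 4 of the 42 members above the other 21 livers in all 3, and none was below. Among 6514 genes with a mean of at least 5 CPM, 74 (1.14%) stood above the other livers in all 3 and 0 below. Of the 73 with a RefSeq position, 19 (26.0%) lay on chromosome 17, 12 (16.4%) on chromosome 11, 10 (13.7%) on chromosome 4, 6 (8.22%) on chromosome 6 and 6 (8.22%) in the mitochondrial genome. The shares of all genes at this level were 4.40%, 7.90%, 6.66%, 4.97% and 0.249%. What sets these livers apart was not tested.

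**Figure D4:**
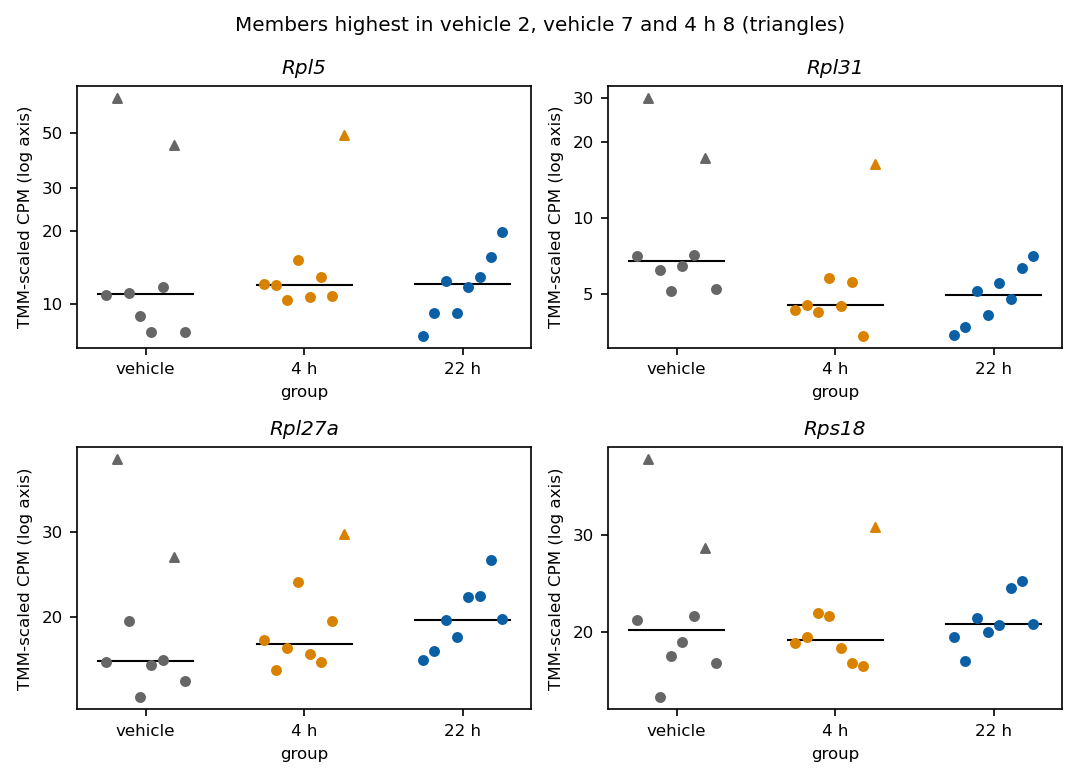
Level of Rpl5, Rpl31, Rpl27a and Rps18 in TMM-scaled CPM (vertical log axes) in each liver of the vehicle, 4 h and 22 h groups, with the median of a group as a line and vehicle 2, vehicle 7 and 4 h 8 as triangles. In each panel the 3 triangles are the highest points, for Rpl5 at 44.8 to 69.7 CPM against at most 19.8 in any other liver.

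Without these 3 livers the members that had risen at 22 h were still called. At 4 h 19 members were then higher (45.2%, against 19.8% of all genes) and 1 lower (20.2% of all genes were lower). The lower member was Rpl31, which fell by 0.44 on the log2 scale (limma-voom adjusted p = 0.027). With all livers it stood at −0.64 ± 0.32 (0.114). At 22 h 35 were higher (83.3%, against 16.3% of all genes), with Rpl27a added (0.32, adjusted p = 0.0233) and all 34 others kept. Rpl5 changed from −0.26 ± 0.40 (0.646) to 0.28 (0.211) at 22 h and passed in neither case, and Rpl31 was at −0.77 ± 0.33 (0.0669) with all livers and −0.37 (0.057) without the 3. For 22 h against 4 h the count fell from 16 (38.1%, against 14.3% of all genes) to 9 (21.4% against 13.4%). Other genes that share 50-base stretches with a member had 45 rows of at least 1 CPM, most of them with pseudogene (-ps) or Gm names. Of these only Gm12411, which shares sequence with Rpl21, was above the other livers in all 3, at 10.7, 12.2 and 9.95 CPM against 3.19 to 6.39, and none shared stretches with Rpl5, Rpl31, Rpl27a or Rps18. Reads moved between copies were not examined beyond these rows, since the table holds only assigned counts.

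Levels between members differed far more than any group difference. Per kb of coding sequence (GENCODE vM21), the mean over all 24 livers had a median of 143 CPM per kb, and the highest member exceeded the lowest by 42.8-fold. Rps24 was highest at 456 CPM per kb and Rps14 next at 452, while Rpl10 at 16.01 and Rpl13 at 10.6 were lowest. Rpl13, a 60S protein, gave 5.12, 5.51 and 7.06 CPM with vehicle and 6.56, 7.77 and 8.76 at 22 h, and even at this level it was higher at 22 h by 0.40 ± 0.09 (limma-voom adjusted p = 0.000942).

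The level per kb went with how much of the coding sequence other genes share. Of the stretches of 50 bases in a member's coding sequence, a median of 90.3% also occurred in transcripts of another gene, from 0% to 100% in 13 members. Those 13 members had a median of 21.1 CPM per kb. The 22 members with 50% to under 100% shared had 159 CPM per kb, and the 7 under 50%, among them Rpl32, Rps15, Rps3, Rpl8 and Rpl22, had 268. Spearman's rho between the shared percent and the level per kb was −0.65 over 42 members, a description across genes of the same libraries. All 7 named rows below the member minimum that had a transcript shared 99.5% to 100%. How the authors counted a read that matches several genes is not given in the sources used here, so levels of members with shared sequence are uncertain.

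**Figure D5:**
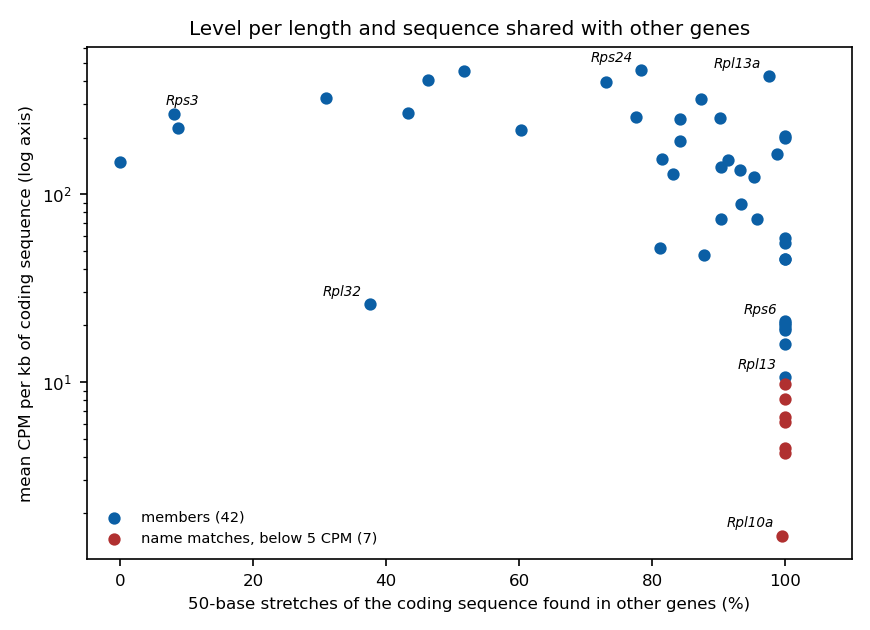
Mean level over the 24 livers in CPM per kb of coding sequence (vertical log axis) against the percent of 50-base stretches of the coding sequence also found in transcripts of other genes (horizontal axis), for the 42 members (blue) and 7 named rows below the member minimum (red). Rows at 100% reach down to 10.6 CPM per kb among members, while Rps3, at 8.09% shared, has 268.

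The rise at 22 h was also seen where sequence is least shared. All 7 members under 50% were higher at 22 h, with a median log2 fold change of 0.30, and 4 of 7 were higher at 4 h with a median of 0.21. Of the 22 in the middle class, 18 were higher at 22 h (median 0.27) and 10 at 4 h (0.15). Of the 13 fully shared, 9 were higher at 22 h (0.23) and 1 at 4 h (0.08). Among all genes tested, 17.6% were called higher at 22 h and 21.7% at 4 h. The 1 of 13 at 4 h was thus below the share of all genes. Spearman's rho between the shared percent and the log2 fold change was −0.26 at 4 h and −0.17 at 22 h over the 42 members. Rpl8, with 8.73% shared, gave 145, 156 and 178 CPM with vehicle, 168, 175 and 187.5 at 4 h, and 164.5, 184 and 205 at 22 h, overlapping at both times. It was higher by 0.16 at 4 h (limma-voom adjusted p = 0.00988) and 0.23 at 22 h (0.000975). The 315 rows of ribosomal protein pseudogenes summed to 778 ± 51.8 CPM for vehicle, 844 ± 21.7 at 4 h and 944 ± 92.1 at 22 h (SD, n = 8), and their reads could not be told apart from reads of the parent genes here.

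Of the other genes whose mRNAs carry a TOP tract, 12 of 22 listed translation factors and partners had a row and were tested. At 4 h 6 were higher (50%, against 21.7% of all genes) and 0 lower, and at 22 h 5 (41.7% against 17.6%) and 0, with a median log2 fold change of 0.13 at both times. Npm1, a nucleolar chaperone of ribosome assembly, averaged 177 CPM in vehicle livers, 220.4 at 4 h and 222 at 22 h, and rose by 0.32 (limma-voom adjusted p = 0.000505) and 0.33 (0.000787). Pabpc1, which binds poly(A) tails, rose by 0.19 (0.00433) and 0.24 (0.000837), and Btf3, of the nascent chain complex, by 0.30 at 22 h (0.000582). Without the 3 livers that differ on gene copies, 5 of the 12 were higher at 4 h and 8 at 22 h, against 19.8% and 16.3% of all genes.

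Of 34 listed initiation and elongation factors outside the TOP group, 26 had a row and were tested. At 4 h 18 were higher (69.2%, against 21.7% of all genes) and 3 lower, and at 22 h 11 (42.3% against 17.6%) and 2. From 4 h to 22 h, 2 were higher (7.69%, against 14.3% of all genes) and 10 lower (38.5% against 15%). The time course of these factors was not tested against that of the members. Etf1, the release factor that ends translation, averaged 212 CPM with vehicle, 358 at 4 h and 265 at 22 h (0.76 at 4 h, limma-voom adjusted p = 2.22e-12, and −0.44 from 4 h to 22 h, 7.05e-08). Eif4a1, the helicase of initiation, averaged 114, 166 and 121 CPM (0.56, 1.15e-08, and −0.47, 3.41e-07). Eif3a, the scaffold of initiation factor 3, was at 418, 524 and 581 CPM and was one of the 2 that were higher at 22 h than at 4 h (0.15, 0.0479), the other being Eef2k (0.54, 0.000178), the kinase that slows elongation.

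Of 62 listed genes of ribosome assembly and of the nucleolus, 31 had a row and were tested. At 4 h 24 were higher (77.4%, against 21.7% of all genes) and 3 lower, and at 22 h 13 (41.9% against 17.6%) and 0. Their medians were 0.34 and 0.18. Against 4 h, 3 were higher and 10 lower at 22 h. Gnl3, the nucleolar GTPase nucleostemin, averaged 43.7 CPM with vehicle, 81.6 at 4 h and 61.8 at 22 h, and rose by 0.91 (limma-voom adjusted p = 2.42e-12) and 0.51 (2.26e-07). Utp4 and Tsr1, both needed to make the small subunit, rose by 0.71 (7.95e-09) and 0.72 (1.59e-07) at 4 h. Dkc1, which modifies ribosomal RNA, was lower at 4 h by −0.16 (0.0237) and higher at 22 h than at 4 h by 0.35 (2.80e-05). So the medians of the assembly genes were larger at 4 h than at 22 h and those of the members larger at 22 h, each against the same vehicle livers, and this difference between the lists was not tested.

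The tested genes of mTORC1 and of TOP control were mixed. Of 28 listed, 14 had a row and were tested. At 4 h 5 were higher (35.7%) and 3 lower (21.4%), against 21.7% and 22.5% of all genes. At 22 h 2 were higher and 2 lower (14.3% each, against 17.6% and 19.2%). Larp1b, a relative of the TOP-binding LARP1, averaged 139 CPM with vehicle, 244 at 4 h and 209 at 22 h, and rose by 0.81 (limma-voom adjusted p = 3.56e-09) and 0.58 (1.90e-06). Pdcd4, an inhibitor of the helicase EIF4A that S6 kinase marks for destruction, averaged 192, 118 and 249.7 CPM, lower at 4 h (−0.70, 6.96e-08) and higher at 22 h (0.39, 0.000505). Sesn1, a sensor that restrains mTORC1, was lower at both times (−0.81, 1.09e-06, and −0.80, 2.95e-06). Rheb, the activator of mTORC1, was higher at 4 h (0.23, 0.000387).

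Ribosomal proteins of mitochondria, which belong to a separate ribosome and carry Mrpl and Mrps names, were counted for comparison. Of 20 tested, 4 were higher and 1 lower at 4 h and 5 and 1 at 22 h, with medians of 0.09 and 0.13. The shares called higher were 20% and 25%, beside 21.7% and 17.6% of all genes. Mrpl50 averaged 97.6, 108 and 123 CPM and rose by 0.33 at 22 h (limma-voom adjusted p = 3.28e-06), and Mrpl15 rose by 0.49 (0.00014), while Mrpl41 was lower at both times (−0.28, 0.00254, and −0.23, 0.0123). Fau, which encodes a ribosomal protein fused to a ubiquitin-like protein, did not pass (0.29 at 22 h, 0.092). Rps27rt, the 1 listed paralog in the table, rose at 22 h by 0.41 (0.000144) and was also higher at 22 h than at 4 h (0.20, 0.0349).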

How the data were processed

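The members and gene lists were chosen with earlier results of these data known. RNA came from frozen liver (miRNeasy Mini Kit) and libraries from the KAPA mRNA HyperPrep kit, per the labels' protocols. The submitters' processing notes name cutadapt, GSNAP and the build GRCm38. Versions, the counting tool, annotation and strand setting are not given in the sources used here. The deposited table holds counts of the authors per Entrez gene, and all 536520 values were whole. Because the layout of the table did not pass a check of units as counts, limma-voom (limma 3.58.1, R 4.3.3) took the place of edgeR, which was not run.

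The filter on low values asked for 10 counts in enough libraries and 15 in all (11508 genes, 99.92% of counts). Libraries were scaled by TMM (trims of 30% and 5%), voom used an offset of 0.5, and 1 model held 3 group means (21 residual and 4.08 prior degrees of freedom). P-values were adjusted by Benjamini-Hochberg over all genes of a comparison, threshold 0.05. Errors of log2 fold changes are standard errors. The fit was tested on simulated data. The labels number the replicates without saying outright that each is a separate animal, and p-values measure only the spread between these samples, which may be technical.

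Members described with values were Rplp0, Rpsa, Rps6, Rpl5 and Rpl22, the 8 with the smallest p in each direction and comparison, and the 2 highest and 2 lowest per length. Each pathway list was named by its 3 smallest p in each direction. Rpl3, Rps19, Rpl27a, Rps18, Rpl8, Rps14 at 22 h and Gm12411 were named after their values were seen. Shared sequence was counted as 50-base stretches of the coding sequence found in transcripts of other genes (GENCODE vM21). Start sites came from RefSeq. Alternatives were 3 other scalings, TMM without the members, 2 filters, limma-trend, sample weights, the libraries of a comparison alone, a replicate block, the runs of liver numbers, leaving out livers, and pseudogene reads added to members. A few members and listed genes are counted but not reported by name here.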

Additional observations from a re-analysis of the deposited data

Results flagged for a closer look

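In 129 groups of 8 livers (42 members and their sum in 3 groups) the highest or lowest liver was set against its nearest neighbour, and 19 stood apart by Dixon's criterion, where chance alone gives about 1 in 20. Vehicle replicate 2 was highest for the summed level (3901 CPM, next 3547), Rpl13a (215.8, next 178.4), Rpl7 (191.8, next 181.6), Rps24 (188.1, next 159.5), Rpl21 (113.7, next 83.4), Rpl30 (47.5, next 41.5) and Rpl27a (42.3, next 26.6). IUB288 4 h replicate 8 was highest for Rpl5 (49.3 CPM, next 15.2), Rps18 (31.0, next 21.6) and Rpl31 (16.4, next 5.76). IUB288 4 h replicate 4 was highest for Rpl13a (322.9 CPM, next 281.8), Rpl7 (230.1, next 212.4), Rpl22 (137.7, next 121.6) and Rpl36a (7.40, next 6.12) and lowest for Rpl10 (9.18, next 10.3). At 4 h replicate 2 was lowest for Rps24 (160.1 CPM, next 177.3) and Rpl21 (81.1, next 91.2), and replicate 5 highest for Rpl13 (7.94, next 6.84). Vehicle replicate 1, the liver with adipocyte markers, was highest for Rps19 (30.3 CPM, next 23.0).

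Levels in IUB288 livers at 22 h exceeded those at 4 h by limma-voom for 16 members (38.1%, against 14.3% of all genes tested). No vehicle group was taken at 4 h, so this compares levels between treated groups and not effects of treatment. By log2 fold change the 16 members included Rpl36a at 0.24, Rpl21 at 0.24, Rpl13 at 0.23, Rps24 at 0.22, Rps26 at 0.20, Rps15 at 0.20, Rpsa at 0.18, Rpl6 at 0.17, Rpl29 at 0.17, Rpl22 at 0.17, Rpl9 at 0.17, Rpl7 at 0.17, Rps14 at 0.16 and Rps4x at 0.16. Adjusted p-values ran from 0.00615 for Rpl7 to 0.0474 for Rpl13.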

How the results depend on the processing

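The members' median log2 fold change stayed above 0 in every comparison under all alternatives run, and no called value changed sign. Numbers of members called higher at 4 h (15, or 35.7% against 21.7% of all genes) were 8 with upper quartile scaling (19.0% against 17.6%), 9 with library totals (21.4% against 17.9%) and 7 in livers 1 to 12 alone (16.7% against 13%), shares near those of all genes, and 1 was lower without the 3 livers that differ on gene copies. At 22 h (34) they were 7 in livers 1 to 12 alone (16.7% against 5.59%). For 22 h against 4 h (16, or 38.1% against 14.3%) they were 27 with upper quartile scaling (64.3% against 20.0%). They were 9 without the 3 livers that differ on gene copies (21.4% against 13.4%). Without the 3 that stand apart on cell type markers (chosen after seeing the data) they were 5 (11.9% against 13.4%), and in livers 1 to 12 alone 0 (against 5.95%). Leaving out 1 liver at a time gave 14 to 22 members higher and 0 to 1 lower at 4 h, 31 to 35 and 0 to 1 at 22 h, and 6 to 20 and 0 between the times. Over all genes, those fits called 2389 to 2587 higher at 4 h, 1857 to 2070 at 22 h and 1495 to 1767 between the times.

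Replicate numbers as a block (the pairing by number) gave 14 members higher at 4 h, 33 at 22 h and 10 between the times. Deviations of same-numbered livers correlated at −0.316 to 0.215, and 5 of 24 correlated best with their own number. Same-numbered livers also come from the same run of liver numbers. These correlations cannot show whether they share anything else.

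Over all genes, livers 1 to 12 alone gave 1511 higher and 1397 lower at 4 h, 649 and 580 at 22 h, and 691 and 782 between the times, and livers 13 to 24 alone gave 1678 and 1488, 1541 and 1699, and 1261 and 1253. With all livers these were 2501 and 2590, 2023 and 2214, and 1644 and 1723. Upper quartile scaling turned the split between the times to 2307 higher and 1171 lower. Alternatives with edgeR and DESeq2 were not run. Each member's counts limit its precision, which was least for the rows near 5 CPM.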
